A study of Mus musculus with 59 samples.

Results

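The nuclear genes for the subunits of oxidative phosphorylation were followed in mouse liver across 4 E2f genotypes. Members were the genes whose symbol names a subunit of NADH dehydrogenase (Ndufa, Ndufb, Ndufc, Ndufs and Ndufv genes), succinate dehydrogenase (Sdha to Sdhd), the cytochrome bc1 complex (Uqcr genes), cytochrome c oxidase (Cox4 to Cox8 genes) or ATP synthase (Atp5 genes). They numbered 81 of the 18193 genes on the array that could be named. Complex I had 33 of them, complex II 4, complex III 8, complex IV 19 and complex V 17. Despite their symbols, Ndufa4 and Ndufa4l2 were counted in complex IV and not in complex I. Each gene was read from 1 probe set, the one with the highest mean among those annotated to its symbol alone.

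The groups were 12 arrays of wild-type liver (wt), 10 of E2f3a knock-out liver (3aKO), 10 of liver with an E2F1 knock-in (1KI) and 5 of liver with an E2F3b knock-in (3bKI). All mice were on a mixed FVB/NT, 129S1/Svlmj and C57BL/6NT background and 4 weeks old, and wt mice carried none of the alterations. The sources used here give no locus for the knock-ins, and no promoter or Cre that would limit an alteration to 1 cell type. Whether each array stands for an animal of its own is not in the labels, so p-values measure only how far these samples spread, and that spread may be technical. The arrays came in 2 normalizations made by the authors, 1 with wt, 3aKO and 1KI and 1 with the same wt and 3aKO arrays and 3bKI. Comparisons were made within a normalization, and 1KI was not set against 3bKI.

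Oxidative phosphorylation takes place in the inner mitochondrial membrane. Complexes I and II take electrons from NADH and succinate, ubiquinone carries them to complex III, cytochrome c carries them to complex IV, and complex IV passes them to oxygen. Complexes I, III and IV pump protons during this transfer, and complex V, the ATP synthase, lets the protons return and makes ATP. Most subunits are encoded in the nucleus and imported, and a small core of complexes I, III, IV and V is encoded in mitochondrial DNA. Hepatocytes are rich in mitochondria, which supply ATP for the making of glucose and urea. E2f proteins are transcription factors best known for genes of DNA replication and the cell cycle.

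Values are log2 signals as the authors normalized them, so a difference of 1 is a 2-fold change of signal. In the 12 wt arrays the subunit genes had a median signal of 12.24, against 6.93 for all genes, which put the median member at percentile 97.1 of all genes. Of the 81, 69 had a wt mean over 10, and these included Uqcrb (13.98 ± 0.08, SD, n = 12), Atp5b (13.86 ± 0.04) and Cox5b (13.55 ± 0.09). Signals of different probe sets depend on the probes, so their order is not an order of RNA amounts. The wt arrays lay close together, with a median SD of 0.09 for the members and 0.14 for all genes.

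Of the other members Cox8c, the testis isoform of complex IV subunit 8, had a wt mean of 8.59, and 11 members lay under 8. Among these 11 were isoforms known from other tissues. Cox6a2, Cox7a1 and Cox8b, the heart and muscle forms of complex IV subunits, had wt means of 7.65 ± 0.16, 5.33 ± 0.21 and 6.31 ± 0.19. Cox4i2, the lung and low-oxygen form of subunit 4, was at 5.50 ± 0.07, and Ndufa4l2, the low-oxygen paralogue of Ndufa4, at 7.10 ± 0.17. The testis isoforms Cox6b2 and Cox7b2 were at 6.44 ± 0.26 and 3.53 ± 0.14. The remaining low members were common subunits, Ndufb4 (4.19), Cox7c (6.01), Ndufs5 (7.11) and Ndufb1 (7.54). For Ndufb4 and Ndufs5 the array also held probe sets that list several symbols and were not counted, with wt means of 11.45 and 10.59, so the low values of these genes describe the probe set and not the gene.

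**Figure D1:**
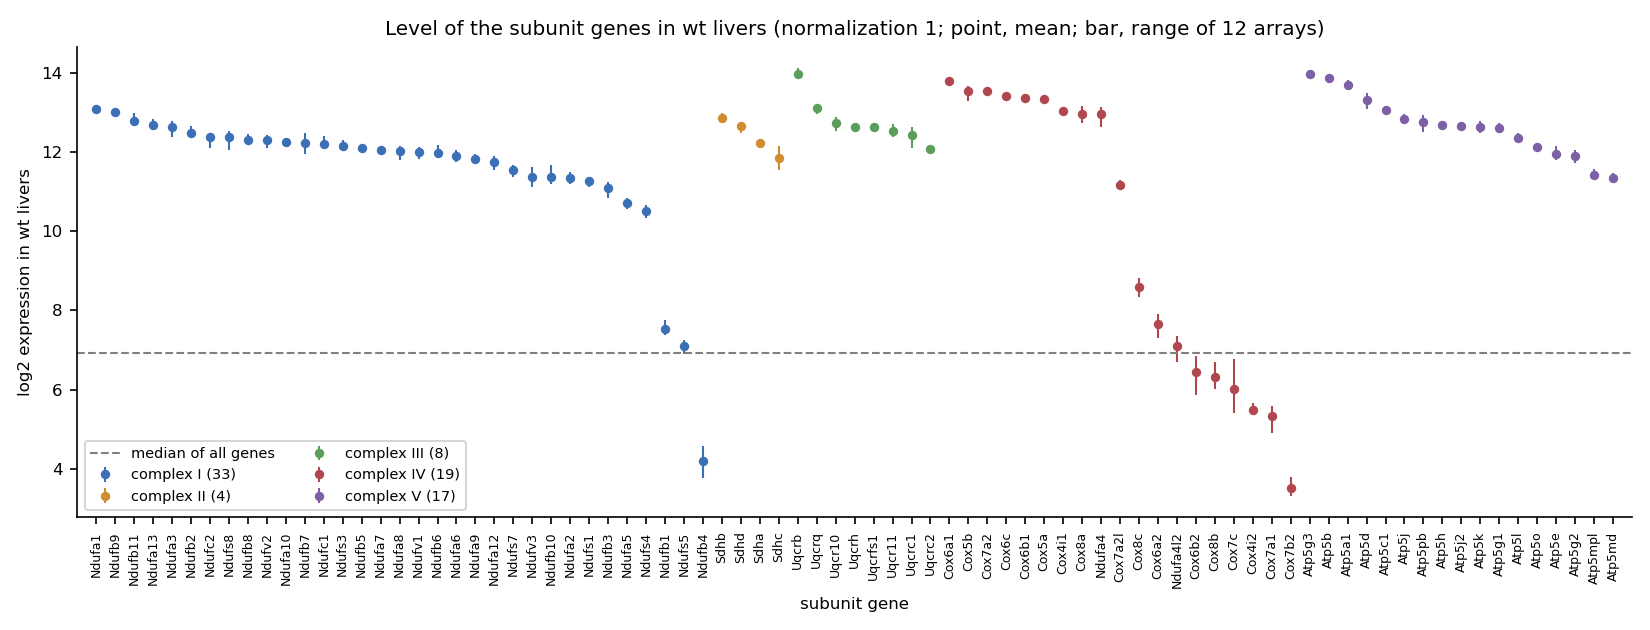
Mean log2 signal of each of the 81 subunit genes in the 12 wt arrays, grouped by respiratory complex, with a bar from the lowest to the highest array; the dashed line is the median of all genes (6.93). Of the members 69 lie above 10, and the low points of complex IV include Cox7b2 (3.53), Cox7a1 (5.33) and Cox4i2 (5.50).

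The promoters of 5 members that recur in the results are shown so that the letters around their start sites can be read beside the values. They are RefSeq sequences of GRCm38.p6, 5′ to 3′ on the strand of the gene, from 250 bases before the start to 50 bases after it. Ndufc2 (chr7:97399753-97400052, plus strand), Ndufa9 (chr6:126849095-126849394, minus strand), Ndufs7 (chr10:80249199-80249498, plus strand) and Ndufv3 (chr17:31519865-31520164, plus strand) are complex I genes that changed in 3bKI. Cox5a (chr9:57520982-57521281, plus strand) is 1 of 2 members whose promoter held an E2F motif. Capitals mark motif matches on either strand, which are AAGATGG (YY1) in Ndufa9 and Ndufs7 and GGGCGG (Sp1) in Ndufv3. In Cox5a they are TTTGGCGC (E2F) and CCGCCC, the reverse complement of the Sp1 letters. The Ndufc2 sequence had no match to the 8 motifs searched.
Ndufc2: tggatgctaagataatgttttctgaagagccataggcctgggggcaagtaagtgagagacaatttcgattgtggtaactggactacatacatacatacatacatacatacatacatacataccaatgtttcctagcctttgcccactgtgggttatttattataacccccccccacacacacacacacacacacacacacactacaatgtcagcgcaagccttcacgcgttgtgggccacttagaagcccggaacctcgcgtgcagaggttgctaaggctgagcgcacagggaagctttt
Ndufa9: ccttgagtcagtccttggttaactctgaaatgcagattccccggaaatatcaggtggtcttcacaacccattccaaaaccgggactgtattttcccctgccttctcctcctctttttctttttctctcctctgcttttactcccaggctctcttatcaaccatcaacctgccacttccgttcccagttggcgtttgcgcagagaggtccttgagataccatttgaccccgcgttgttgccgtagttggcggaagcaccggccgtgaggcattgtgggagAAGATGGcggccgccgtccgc
Ndufs7: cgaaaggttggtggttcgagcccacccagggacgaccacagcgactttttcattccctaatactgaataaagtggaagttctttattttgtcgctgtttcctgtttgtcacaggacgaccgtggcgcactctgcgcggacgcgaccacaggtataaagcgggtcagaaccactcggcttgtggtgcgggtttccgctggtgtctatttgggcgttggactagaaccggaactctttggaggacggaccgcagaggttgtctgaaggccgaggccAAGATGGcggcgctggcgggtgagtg
Ndufv3: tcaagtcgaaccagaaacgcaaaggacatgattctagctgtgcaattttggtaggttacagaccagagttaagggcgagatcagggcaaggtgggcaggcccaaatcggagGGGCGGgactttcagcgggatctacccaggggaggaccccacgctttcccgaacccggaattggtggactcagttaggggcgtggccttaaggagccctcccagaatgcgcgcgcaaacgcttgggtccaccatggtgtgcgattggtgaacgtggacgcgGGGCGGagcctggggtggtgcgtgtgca
Cox5a: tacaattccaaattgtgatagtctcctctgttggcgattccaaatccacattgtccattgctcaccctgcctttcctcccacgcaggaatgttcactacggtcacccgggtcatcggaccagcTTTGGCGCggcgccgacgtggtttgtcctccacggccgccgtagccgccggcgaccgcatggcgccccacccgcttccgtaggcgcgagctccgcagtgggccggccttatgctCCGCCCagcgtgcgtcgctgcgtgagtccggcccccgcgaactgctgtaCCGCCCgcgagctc

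A promoter was matched for 66 of the 81 members and for 27025 genes in all. The letters GCGCATGC, bound by Nrf1, stood in 9 member promoters (13.6%) and in 3.0% of all. CCGGAAG, an ETS motif of the kind bound by Gabpa, stood in 17 (25.8%) and in 9.9% of all. AAGATGG (YY1) stood in 10 (15.2%) against 7.3%, AAGGTCA (estrogen-related receptors) in 8 (12.1%) against 5.4%, and GGGCGG (Sp1) in 28 (42.4%) against 38.2%. Of 3 E2F motifs, TTTGGCGC stood in Cox5a and Cox8a (3.0% against 0.6% of all), and TTTCCCGC and TTTCGCGC stood in 0 members, against 1.2% and 0.4% of all. These are matches of letters, not binding sites.

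Loss of E2f3a came with no called change among the subunit genes. In 3aKO against wt, limma with Benjamini-Hochberg adjustment called 0 of 81 members at an adjusted p under 0.05, where 0.176% of all genes were called. In bulk liver RNA, fewer cells of a type and less RNA per cell cannot be told apart. At an unadjusted p under 0.05 there were 3 members, Cox8c (-0.18, adjusted p = 0.175), Ndufc2 (0.10) and Atp5h (0.07). All 81 differences lay between -0.18 and 0.16 on the log2 scale, with a median of 0.01 against -0.01 for all genes. The catalytic subunits lay within this range, as for Sdha, the flavoprotein of complex II (-0.07), and Atp5a1 and Atp5b, the alpha and beta subunits of the ATP synthase head. In the second normalization of the same arrays limma again called 0 members, with 10 at an unadjusted p under 0.05. With array weights Cox8c alone was called (-0.19, adjusted p = 0.043).

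A regulator of mitochondrial genes moved in these livers while the subunit genes were not called. Ppargc1a, the coactivator PGC-1α of mitochondrial biogenesis, ran from 6.73 through a median of 7.34 to 8.03 in wt and from 7.79 through 8.68 to 8.88 in 3aKO. It rose by 1.12 ± 0.16 (SE) with an adjusted p of 2.96e-04. The 2 groups overlapped between 7.79 and 8.03. The E2f3 probe set of the array had a difference of -0.25 ± 0.07 (adjusted p = 0.134), but the sources used here do not place it relative to the removed part, so it checks nothing. The E2f1 probe set read 6.39 ± 0.25 in 1KI, 6.63 ± 0.32 in wt and 6.68 ± 0.20 in 3aKO. It differed by -0.25 ± 0.11 from wt (adjusted p = 0.0864) and fell by 0.29 ± 0.11 against 3aKO (adjusted p = 0.0494). The same sources do not say whether this probe set reads the transcript of the knock-in, so the 1KI label was not checked by it.

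In 1KI livers a minority of subunit genes changed, and in both directions. In 1KI against wt, 17 of 81 members passed. Of these 8 rose (9.88% of members, against 10.2% of all genes) and 9 fell (11.1% against 17.5%). Against 3aKO also 17 passed, 5 higher (6.17% against 11.9% of all genes) and 12 lower (14.8% against 19% of all genes). None of these 4 shares was above that of all genes in its direction. Among 1235 other genes with a mean signal over 11, 34.8% passed against wt and 37.9% against 3aKO. Beside them stood 15 and 16 of the 67 members over 11. The median difference was -0.01 against wt and 0.00 against 3aKO, beside -0.05 and -0.03 for all genes, and the median size was 0.09 and 0.08 against 0.10 and 0.11. With array medians set equal the split became 6 higher (8.67% of all genes) and 17 lower (23.8% of all genes) against wt and 2 higher (9.51% of all genes) and 18 lower (24.7% of all genes) against 3aKO. The balance of directions thus depended on the scaling, in the members and in all genes.

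**Figure D2:**
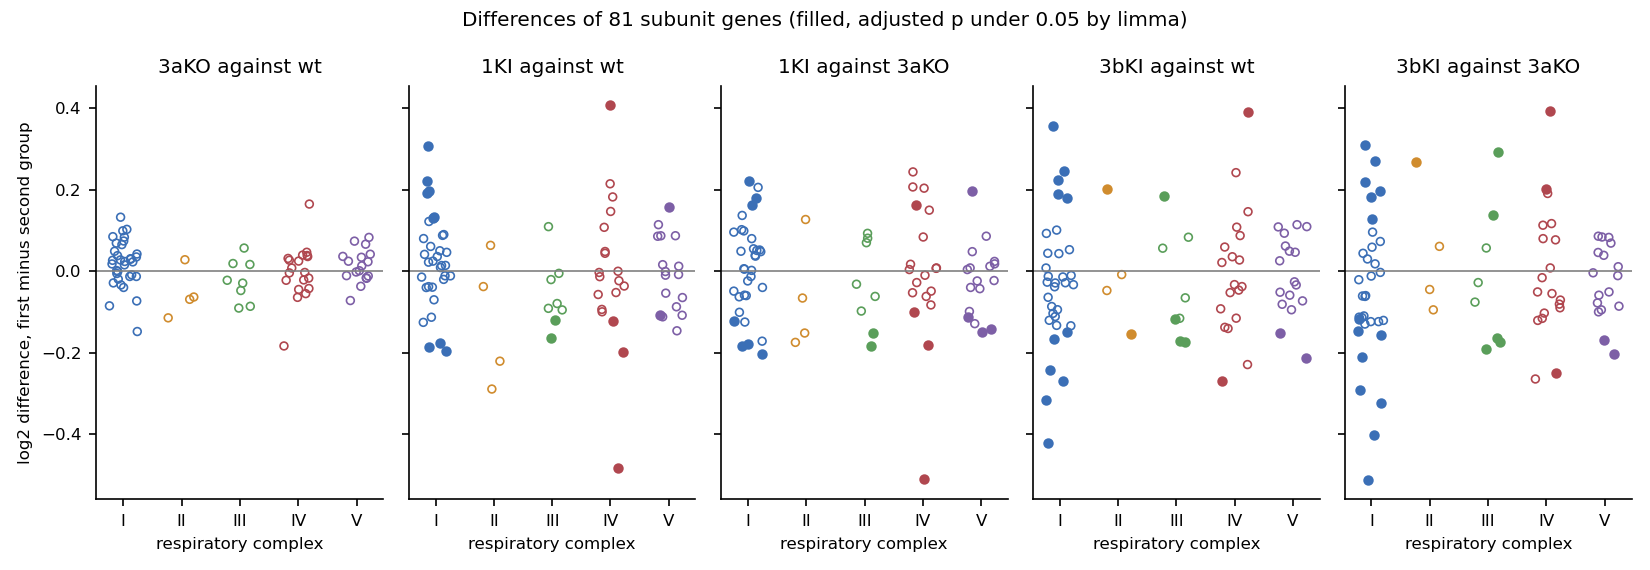
Log2 difference of each of the 81 subunit genes in the 5 comparisons, grouped by respiratory complex; filled points passed an adjusted p of 0.05 by limma. No point is filled in 3aKO against wt, and filled points lie on both sides of 0 in the 4 comparisons with a knock-in.

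Within complex I, 6 genes rose and 3 fell in 1KI against wt. Ndufv3, a small accessory subunit of the NADH-oxidizing tip, ran from 11.42 through a median of 11.62 to 12.44 in 1KI and from 11.11 through 11.41 to 11.62 in wt, a rise of 0.31 ± 0.08 (adjusted p = 0.00416). The groups overlapped, and the highest 1KI value was that of replicate 6. Without replicate 6 the rise against 3aKO was 0.14 and no longer passed (adjusted p = 0.0706), as in 13 of 20 fits that left out 1 array. Ndufc1, an accessory subunit of the membrane arm, ran from 12.27 through 12.43 to 12.59 in 1KI and from 12.09 through 12.20 to 12.41 in wt and rose by 0.20 ± 0.04 (adjusted p = 8.79e-04). All 10 of the 1KI arrays lay above the wt mean of Ndufc1. Ndufs8, a core subunit with iron-sulfur clusters, rose by 0.19 ± 0.06, and Ndufb7, Ndufa1 and Ndufa10 of the membrane arm by 0.22, 0.13 and 0.13. Without 1KI replicates 4 and 6, Ndufs8 (0.131, adjusted p = 0.0709), Ndufa1 (0.094, adjusted p = 0.0701) and Ndufa10 (0.113, adjusted p = 0.0533) were no longer called. Ndufb7 was not called in that fit either, while Ndufv3 and Ndufc1 kept their calls. With the mean of a gene's probe sets the Ndufs8 and Ndufa10 calls ended too. The Ndufb7 call ended in 7 of 22 fits that left out 1 array, and without 1KI replicate 6 its rise was 0.14 (adjusted p = 0.07).

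Ndufa8, an accessory subunit on the intermembrane side, fell. Its 1KI values ran from 11.67 through 11.88 to 11.99, against 11.81, 12.04 and 12.16 in wt and 12.02, 12.05 and 12.13 in 3aKO. The change was -0.18 ± 0.04 against wt (adjusted p = 9.89e-04) and -0.20 ± 0.04 against 3aKO (adjusted p = 2.65e-04), and every 1KI array lay below every 3aKO array. Ndufs1, the large iron-sulfur subunit of the tip, ran from 10.36 through 11.11 to 11.29 in 1KI and from 11.11 through 11.24 to 11.37 in wt, and fell by 0.20 ± 0.07 (adjusted p = 0.0238). Ndufa9, an accessory subunit where the 2 arms meet, ran from 11.07 through 11.68 to 11.83 against 11.69, 11.82 and 11.94, and fell by 0.19 ± 0.06 (adjusted p = 0.0152). For both, 1KI replicate 6 was the lowest array, and without it the changes were -0.12 each (adjusted p = 0.0176 and 0.0153). The flavin-binding Ndufv1 and the membrane arm subunit Ndufb8 were not called.

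In complex II 0 of 4 genes passed in either 1KI comparison, but some passed in other fits, which are given below. In complex III, Uqcr10 ran from 12.39 through 12.59 to 12.67 in 1KI and from 12.54 through 12.75 to 12.88 in wt and fell by 0.17 ± 0.05 (adjusted p = 0.00823). Uqcrc2, a core protein of complex III, fell by 0.12 ± 0.04 (adjusted p = 0.0353), and this call ended in 8 of 22 fits without 1 array, replicate 6 among them (-0.08, adjusted p = 0.0655). Uqcrb, a small subunit, fell against 3aKO by 0.15. The Rieske protein gene Uqcrfs1 was not called.

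In complex IV the lowest difference belonged to the testis isoform Cox6b2. It ran from 5.68 through 5.96 to 6.26 in 1KI and from 5.87 through 6.54 to 6.86 in wt, a change of -0.48 ± 0.10 (adjusted p = 2.45e-04), at signals below the median of all genes. Cox7a2l, a factor of respiratory supercomplexes related to subunit 7a, ran from 10.58 through 11.03 to 11.13 against 11.06, 11.15 and 11.29 and fell by 0.20 ± 0.05 (adjusted p = 0.00327). Its other probe sets differed by -0.03 and -0.05, and the mean of all 3 was at -0.09 and was not called. Cox7a2, the liver form of subunit 7a, fell by 0.12 ± 0.04 (adjusted p = 0.0130). Cox7c, read from a dim probe set, ran from 6.15 through 6.34 to 7.07 against 5.41, 5.99 and 6.77 and rose by 0.41 ± 0.13 (adjusted p = 0.0173). Cox5a rose against 3aKO (0.16 ± 0.05, adjusted p = 0.0104), with 13.01, 13.49 and 13.55 as lowest, median and highest 1KI values against 13.19, 13.29 and 13.35. The mean of its probe sets gave -0.003. Against wt the Cox5a difference was 0.11 and was not called, but it was called at 0.16 with array weights and also at 0.16 without 1KI replicates 4 and 6. The common subunits Cox4i1 and Cox5b were not called.

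In complex V, Atp5d, the delta subunit of the central stalk, ran from 13.33 through 13.47 to 13.69 in 1KI and from 13.09 through 13.33 to 13.48 in wt. It rose by 0.16 ± 0.04 (adjusted p = 0.00648), with all 10 of the 1KI arrays above the wt mean. Atp5o, the peripheral stalk protein that confers oligomycin sensitivity, fell by 0.11 ± 0.04 (adjusted p = 0.0398), a call that ended in 12 of 22 fits without 1 array. Against 3aKO, Atp5g1, a gene of the c-ring, fell by 0.15 and Atp5c1, the gamma subunit, by 0.11, a call lost in 8 of 20 such fits. The catalytic Atp5a1 and Atp5b were not called in either comparison.

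Replicate 6 of 1KI stood apart in most subunit genes. It lay outside the range of the other 9 in 59 of 81 members, above it in 29 and below it in 30, while the 8 arrays other than replicates 4 and 6 did so in 1 to 20. Of the arrays of normalization 1, this one had the lowest median correlation with the others (0.9635). The share of all genes outside that range was not counted, so these counts do not set subunit genes apart from other genes. Among the members, complex II was lowest on this array. Sdhd, a membrane anchor of complex II, read 10.64 on replicate 6 and 12.34 to 12.74 on the other 9, Sdha 10.97 against 12.02 to 12.26, and Sdhc 11.10 against 11.92 to 12.13. Atp5a1 (12.86 against 13.56 to 13.70) and Atp5b (13.05 against 13.74 to 13.87) were low too. Ndufv3 (12.44 against 11.42 to 11.79), Ndufb7 (13.16 against 12.16 to 12.61) and Ndufa5 (11.51 against 10.28 to 10.89) were high. On the same array the 3′ minus 5′ difference averaged over Actb and Gapdh, which is larger where RNA is degraded, was 1.75, against 0.45 to 0.66 on the other 1KI arrays; its part in these values was not tested.

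Replicate 4 lay outside the range of the other 9 arrays in 15 members, above it in 14 and below it in 1, a number within that of the 8 arrays. It stood far from them in the muscle isoforms of complex IV. Cox6a2 read 9.50 there and 7.42 to 7.81 on the other 9 arrays, Cox7a1 7.05 against 4.89 to 5.38, and Cox8b 7.95 against 6.20 to 6.52. Of 13 striated muscle markers 9 were more than 1 above the wt median on this array, and the log2 of their mean signal was 9.58, against at most 6.25 on all other arrays. Acta1 reached 12.41 and Ckm 10.08, while Myh4 (4.72) and the cardiac Actc1 (5.85) were not raised. The part of these markers in the isoform values was not tested. Without replicates 4 and 6, an alternative chosen after seeing the data, 15 members passed against wt, 12 of them among the 17, and 17 against 3aKO, 13 of them among the 17. The Cox6a2 difference went from 0.18 to -0.02 and that of Cox8b from 0.21 to 0.04. Sdha, not called before, was called at -0.10 against wt (adjusted p = 0.0371), and Sdhc at 0.225 against 3aKO (adjusted p = 0.00794). With the 3′ minus 5′ difference as a covariate and all arrays kept, Sdha passed at -0.15 against wt and -0.14 against 3aKO. Sdhd passed in that fit at -0.17 and -0.15.

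**Figure D3:**
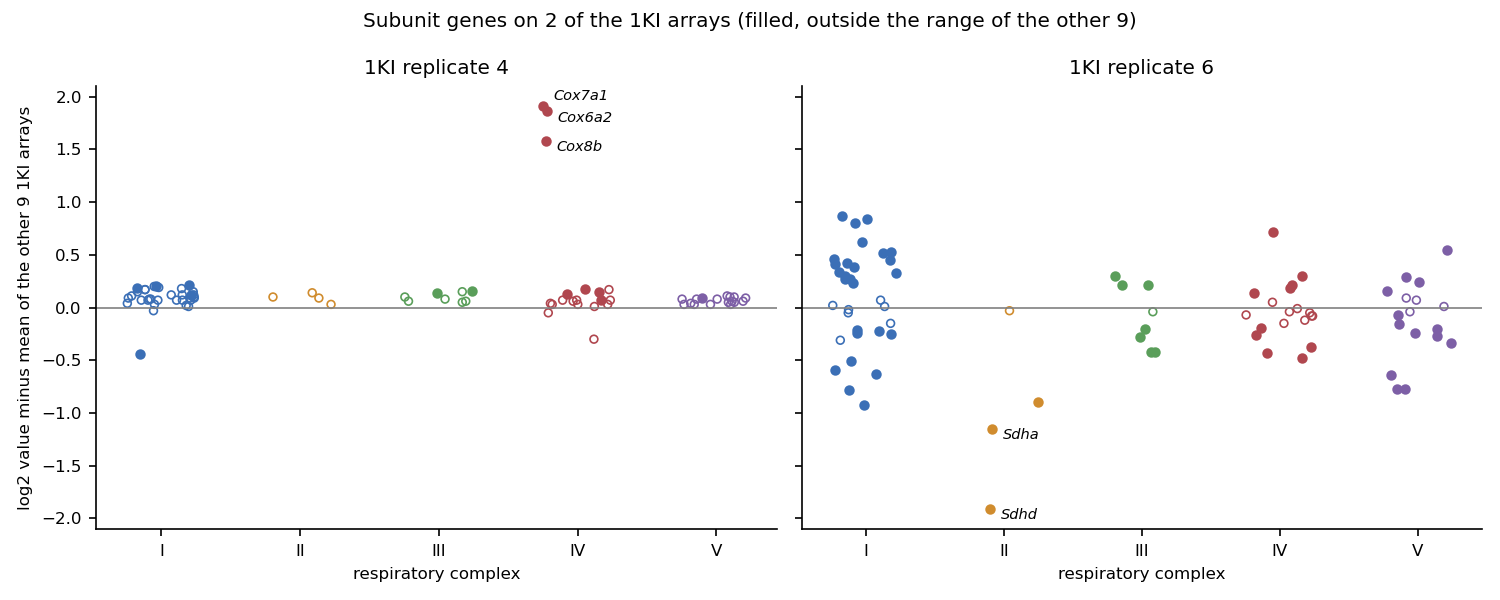
Log2 signal of each of the 81 subunit genes on 1KI replicates 4 and 6 minus the mean of the other 9 1KI arrays, grouped by respiratory complex; filled points lie outside the range of those 9. On replicate 4 the high points are Cox7a1, Cox6a2 and Cox8b, and on replicate 6 Sdhd (-1.91) and Sdha (-1.15) lie lowest.

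In 3bKI livers subunit genes also changed in both directions, most of them by under 0.3. Against wt, 21 of 81 passed. Of these 8 rose (9.88% against 13.4% of all genes) and 13 fell (16% against 15.9%). Against 3aKO 25 passed, 11 higher (13.6% against 16.5% of all genes) and 14 lower (17.3% against 17.7% of all genes). These shares were near or under those of all genes. Bright genes were called more often than dim ones, and of 1201 other genes with a mean signal over 11, 46% passed against wt, beside 19 of the 67 members over 11. By direction, 10.7% of these other bright genes rose and 35.3% fell. The median member difference was -0.03 against wt and -0.05 against 3aKO, with 0.00 and 0.02 for all genes, and the median size was 0.09 and 0.10 against 0.12 and 0.14. With equal array medians the splits were 4 higher (9.58% of all genes) and 23 lower (20.3% of all genes) against wt and 6 higher (11% of all genes) and 28 lower (22.2% of all genes) against 3aKO. Under that scaling the members' shares were below those of all genes for rises and above them for falls. Most genes are dimmer than the members, and bright genes were not counted apart under that scaling.

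Complex I held 11 of the 21 called members, 5 higher and 6 lower. By part of the complex, 5 of 8 genes of the NADH-oxidizing tip passed (2 higher, 3 lower), 3 of 6 of the quinone-reducing part (1 higher, 2 lower) and 3 of 19 of the membrane arm (2 higher, 1 lower), where 29.2% of all genes passed in either direction. The difference between these parts was not tested. In complex II 1 gene rose and 1 fell, in complex III 1 rose and 3 fell, in complex IV 1 rose and 1 fell, and in complex V 0 rose and 2 fell. Subunits of 1 complex thus moved in both directions in complexes I to IV. In 6 members the 3bKI and wt arrays did not overlap, a state that 7.18% of all genes shared. Against 3aKO there were 11 such members, beside 12.2% of all genes.

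Ndufc2, a membrane arm subunit of complex I, fell furthest. The 5 3bKI arrays read 12.00, 11.60, 12.02, 11.97 and 12.06, against 12.10, 12.39 and 12.47 as the lowest, median and highest wt value and 12.29, 12.46 and 12.58 in 3aKO. All 3bKI values lay below all others, and replicate 2 stood lowest. The change was -0.42 ± 0.06 against wt (adjusted p = 9.57e-06), which means that the signal fell by 25.4%, and -0.51 ± 0.07 against 3aKO (adjusted p = 6.57e-07). The other probe sets of Ndufc2 differed by -0.15, 0.04 and -0.04 against wt and were not called, so its fall rests on 1 probe set.

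Ndufa9, read by a single probe set, gave 11.52, 11.41, 11.56, 11.46 and 11.60 in 3bKI and 11.72, 11.82 and 11.93 as lowest, median and highest in wt. The groups did not overlap, and it fell by 0.32 ± 0.05 (adjusted p = 3.85e-06) against wt and by 0.29 ± 0.05 (adjusted p = 1.19e-05) against 3aKO. Ndufa12, an accessory subunit of the peripheral arm, gave 11.57, 11.10, 11.62, 11.40 and 11.50 against 11.52, 11.70 and 11.88. It fell by 0.27 ± 0.07 against wt (adjusted p = 0.00401) and by 0.40 ± 0.07 against 3aKO (adjusted p = 6.96e-05). A second bright probe set of Ndufa12 fell by 0.25, while a dim one with a mean of 4.02 rose by 0.42, and the mean of all its probe sets was at -0.05 and was not called. Ndufa5, of the quinone-reducing part, gave 10.46, 10.07, 10.46, 10.36 and 10.74 against 10.50, 10.66 and 10.80 and fell by 0.24 ± 0.08 (adjusted p = 0.0216). Its call ended without 3bKI replicate 2 (-0.16, adjusted p = 0.141) or replicate 4 (-0.23, adjusted p = 0.0552). Ndufs1 fell by 0.17 ± 0.05 (adjusted p = 0.00702) and Ndufa2 by 0.15 ± 0.06 (adjusted p = 0.0468), the latter lost in 10 of 17 fits without 1 array.

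Other complex I genes rose. Ndufv3 gave 11.85, 11.68, 11.62, 11.73 and 11.79 in 3bKI against 11.14, 11.41 and 11.62 in wt, so the lowest 3bKI array met the highest wt array. It rose by 0.36 ± 0.06 (adjusted p = 8.67e-05), or 28.0% of signal. Ndufa7, an accessory subunit of the peripheral arm, gave 12.33, 12.21, 12.31, 12.16 and 12.29 against 11.94, 12.00 and 12.09. It did not overlap with wt and rose by 0.25 ± 0.04 (adjusted p = 5.71e-05). Of its other probe sets 1 rose by 0.28 and 3 differed by 0.11, 0.03 and -0.01. Ndufs7, the core subunit with the last iron-sulfur cluster before quinone, gave 11.77, 11.76, 11.67, 11.78 and 11.84 against 11.37, 11.55 and 11.66. It rose by 0.22 ± 0.05 (adjusted p = 0.00145) against wt and by 0.31 ± 0.05 (adjusted p = 4.10e-05) against 3aKO without overlap in either, while its other probe set differed by 0.10 and was not called. Ndufc1 and Ndufb6 of the membrane arm rose by 0.19 and 0.18. The mean of the probe sets was at 0.11 for Ndufc1 and 0.05 for Ndufb6 and was not called for either, and the Ndufb6 call ended without 3bKI replicate 5 (0.14, adjusted p = 0.0641). The core subunit gene Ndufv1 (-0.01, adjusted p = 0.872) and Ndufb8 (-0.12, adjusted p = 0.0849) were not called.

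**Figure D4:**
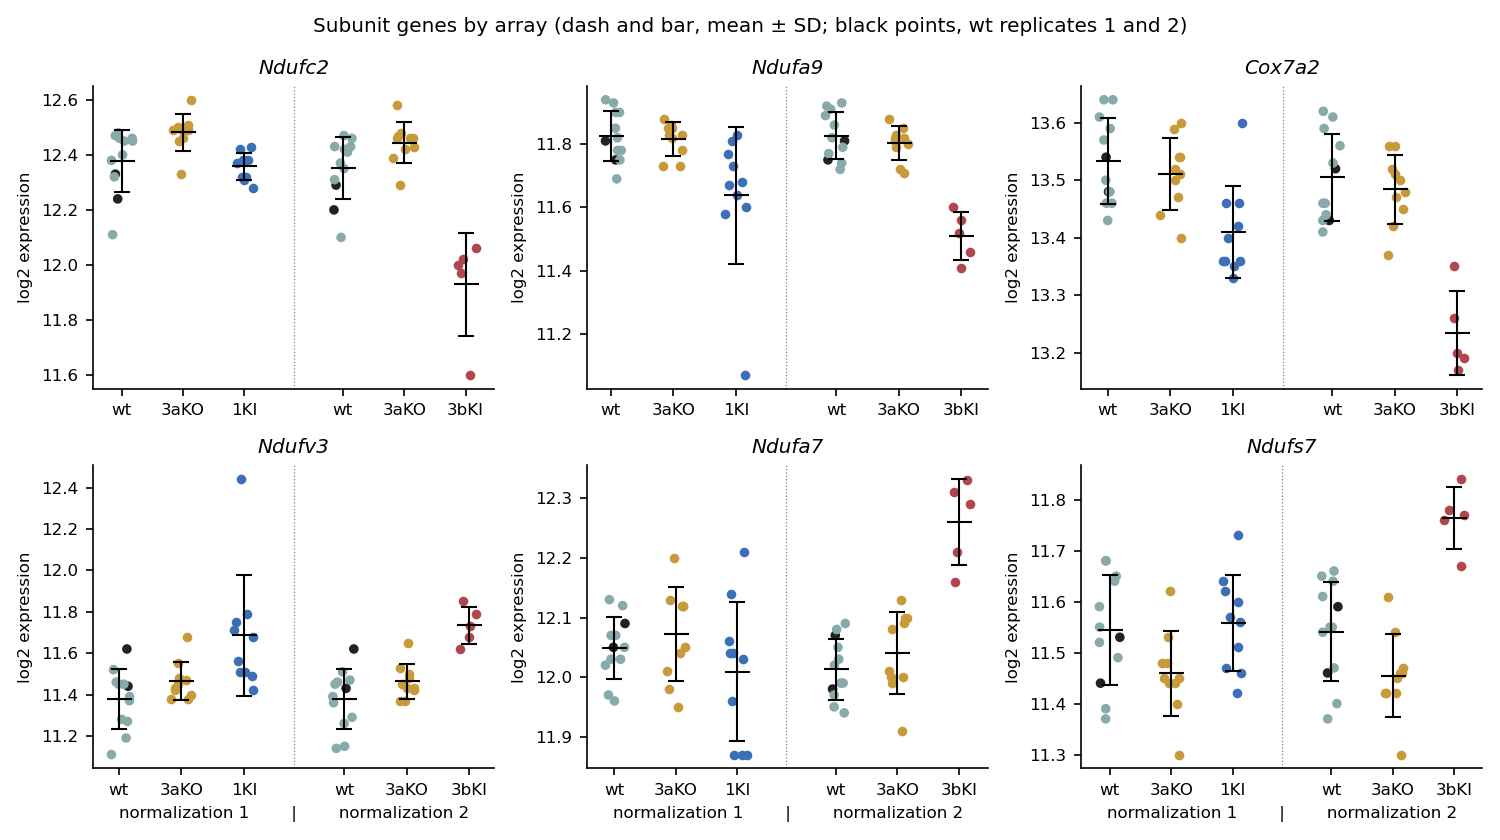
Log2 signal on each array of 6 subunit genes, with the mean and SD of each group. The left part shows wt, 3aKO and 1KI in normalization 1, and the right part the same wt and 3aKO arrays with 3bKI in normalization 2. Black points are wt replicates 1 and 2. Ndufc2, Ndufa9 and Cox7a2 lie lower in 3bKI and Ndufv3, Ndufa7 and Ndufs7 higher, and the highest 3bKI value of Ndufc2 (12.06) lies just below the lowest wt value (12.10).

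In complex II, Sdha gave 12.00, 12.13, 11.86, 12.00 and 12.16 in 3bKI against 12.14, 12.18 and 12.26 in wt. It changed by -0.16 ± 0.05 (adjusted p = 0.0131), and the call ended without 3bKI replicate 3 (-0.11, adjusted p = 0.0823). Sdhc gave 12.04, 11.90, 12.07, 11.94 and 12.13 against 11.58, 11.77 and 12.10 and rose by 0.20 ± 0.07 (adjusted p = 0.0421), a call lost in 11 of 17 fits without 1 array. Wt replicates 1 and 2 read 12.06 and 12.10 for Sdhc, as high as the 3bKI arrays. The iron-sulfur subunit gene Sdhb was not called (-0.01, adjusted p = 0.925).

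In complex III, both core proteins passed, in opposite directions. Uqcrc1 gave 12.69, 12.62, 12.55, 12.62 and 12.56 in 3bKI against 12.09, 12.43 and 12.64 in wt and rose by 0.18 ± 0.06 (adjusted p = 0.0151), and by 0.29 ± 0.06 (adjusted p = 2.53e-04) against 3aKO, where the groups did not overlap. The call against wt ended without 3bKI replicate 1 (0.16, adjusted p = 0.0529). Uqcrc2 gave 11.89, 11.86, 11.82, 11.83 and 11.99 against 11.94, 12.06 and 12.13 and fell by 0.17 ± 0.04 (adjusted p = 0.00239). Uqcr10 fell by 0.17 ± 0.06 (adjusted p = 0.0324), and this call ended without wt replicate 8 or 11 (-0.16 each) or 3bKI replicate 1 (-0.17) or 4 (-0.13). The mean of its probe sets turned to 0.24 and was not called. Uqcrfs1 fell by 0.12 ± 0.04 (adjusted p = 0.0242), and its call ended without 3bKI replicate 2 (-0.09) or 4 (-0.11).

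In complex IV, Cox7a2 gave 13.20, 13.19, 13.35, 13.17 and 13.26 in 3bKI against 13.41, 13.49 and 13.62 in wt. The groups did not overlap, and it fell by 0.27 ± 0.05 (adjusted p = 3.79e-05) against wt and by 0.25 ± 0.05 (adjusted p = 1.23e-04) against 3aKO. Its second probe set fell by 0.24. Ndufa4l2 gave 7.33, 7.42, 7.50, 7.39 and 7.74 against 6.73, 7.10 and 7.35 and rose by 0.39 ± 0.09 (adjusted p = 9.04e-04), at a signal near the median of all genes. Cox4i1 (0.03, adjusted p = 0.655), Cox5b (-0.09, adjusted p = 0.200) and Cox7a2l (-0.14, adjusted p = 0.0548) were not called, nor were the muscle isoforms Cox6a2, Cox7a1 and Cox8b or the low-oxygen Cox4i2.

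In complex V, Atp5c1 gave 12.93, 12.89, 12.92, 12.79 and 12.84 in 3bKI against 12.95, 13.04 and 13.10 in wt and fell by 0.15 ± 0.04 (adjusted p = 0.00401) without overlap. The mean of the Atp5c1 probe sets was at 0.07 and was not called. Atp5pb, subunit b of the peripheral stalk, gave 12.53, 12.34, 12.57, 12.55 and 12.67 against 12.48, 12.75 and 12.96 and fell by 0.21 ± 0.07 (adjusted p = 0.0140). The Atp5pb call ended without 3bKI replicate 2 (-0.17, adjusted p = 0.0729). The catalytic pair Atp5a1 (-0.09 ± 0.04, adjusted p = 0.104) and Atp5b (-0.07, adjusted p = 0.155) was not called. ND5, a complex I subunit encoded in mitochondrial DNA and named after its value was seen, changed by -0.13 ± 0.04 (adjusted p = 0.0262) in 3bKI against wt.

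Most members called in a knock-in comparison were no longer called with the level of the hybridization controls as a block in the fit. These spiked-in controls report the hybridization and wash of an array, and their mean log2 signal was 10.44 ± 0.50 in wt (n = 12), 10.21 ± 0.12 in 3aKO (n = 10), 11.31 ± 0.24 in 1KI (n = 10) and 11.58 ± 0.29 in 3bKI (n = 5, second normalization). Wt replicates 1 and 2 reached the knock-in arrays in this signal, while the remaining wt arrays and all 3aKO arrays lay lower. Poly-A controls, spiked into the RNA, read 13.81 ± 0.04 in 3bKI and 9.04 ± 0.39 in wt, and the 3′ minus 5′ difference was 0.31 ± 0.04 in 3bKI and 0.56 ± 0.05 in wt, without overlap between the groups. All knock-in arrays had the higher hybridization control level and all 3aKO arrays the lower, so the block was set by wt alone. Against wt it compared a knock-in with wt replicates 1 and 2 only. Against 3aKO it corrected by the difference of these 2 arrays from the other wt arrays. A call can be lost through so small a reference as well as through a smaller difference, and the share of each was not tested. With the block, 2 members passed in 1KI against wt (4.3% of all genes) and 0 against 3aKO (2.29% of all genes). For 3bKI 6 passed against wt (8.7% of all genes) and 6 against 3aKO (6.77% of all genes). Of the 2, Cox6b2 changed by -0.61 (adjusted p = 0.0357) and Cox7c by 0.81 (adjusted p = 0.0311). For 1KI against 3aKO, 29 members had an unadjusted p under 0.05 without the block.

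In 3bKI against wt the block kept 4 of the 21. Ndufa9 changed by -0.27 (adjusted p = 0.0159), Cox7a2 by -0.24 (adjusted p = 0.0362), Ndufa7 by 0.24 (adjusted p = 0.0297) and Ndufc2 by -0.32 (adjusted p = 0.046). Ndufb11 (-0.26, adjusted p = 0.0366) and Ndufb7 (-0.28, adjusted p = 0.037), both of the membrane arm, were called only with it. Of the lost calls, several kept or exceeded their size. They were Ndufs7 (0.24, adjusted p = 0.0698), Atp5pb (-0.31, adjusted p = 0.0532), Ndufa2 (-0.24, adjusted p = 0.0909), Ndufa5 (-0.31), Ndufa12 (-0.28) and Uqcrfs1 (-0.13). Others came closer to 0, such as Uqcrc2 (-0.07) and Ndufs1 (-0.07), and Sdhc turned to -0.06. Against 3aKO, Ndufc2 (-0.38), Ndufa12 (-0.42), Ndufb11 (-0.36) and Ndufs7 (0.33) kept their calls, and Ndufb10 (-0.38) and Ndufb7 (-0.33) were added. Against the 2 wt arrays of the same control level alone, 0 members passed, at -0.32 for Ndufc2, -0.27 for Ndufa9, -0.24 for Cox7a2 and 0.24 for Ndufa7. These are the same differences as with the block, which rests on the same 2 wt arrays, so they are no second check. With the 3′ minus 5′ difference as a covariate, Ndufv3 alone passed against wt (0.45) and 0 passed against 3aKO, while Ndufc2 was at -0.34 (adjusted p = 0.148) and Ndufa9 at -0.29 (adjusted p = 0.0745). Genotype and this difference cannot be told apart in 3bKI, whose arrays did not overlap with wt in it. The same holds for the poly-A controls, at 13.77 or more in 3bKI and at most 9.70 in wt. The hybridization block adjusts for neither, so the calls that it kept are not cleared of them.

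**Figure D5:**
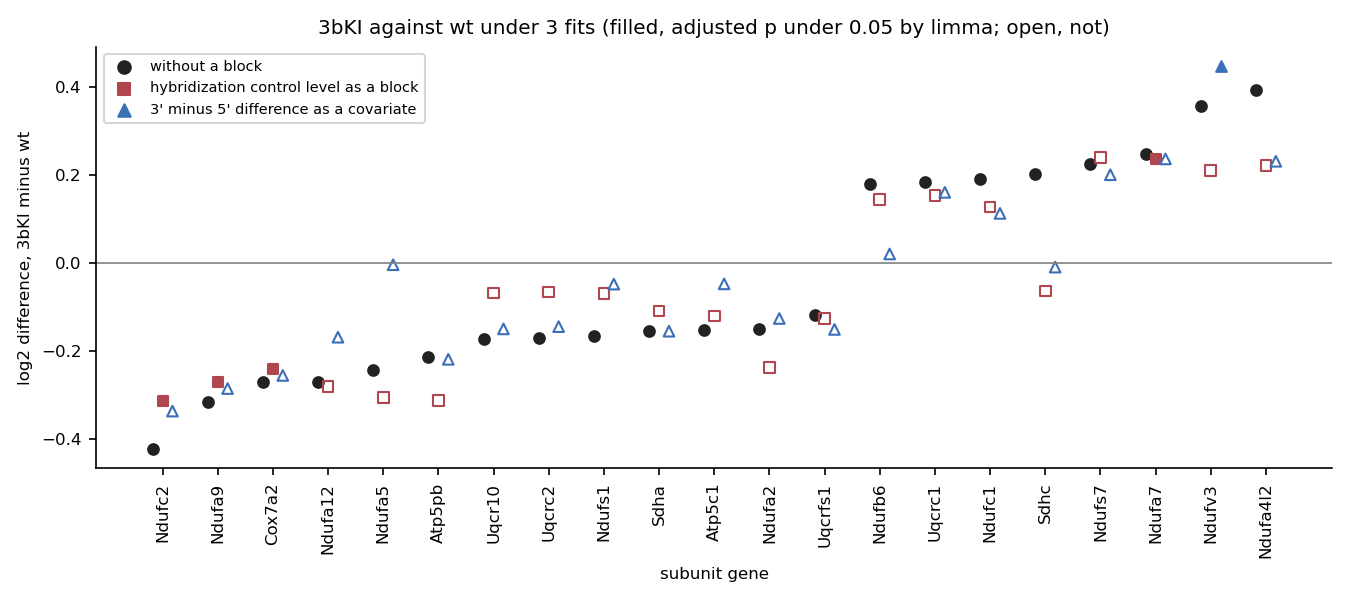
Log2 difference of the 21 members called in 3bKI against wt under 3 fits, with no block, with a block for the hybridization control level and with the 3′ minus 5′ difference as a covariate; filled points passed an adjusted p of 0.05 by limma. Ndufc2, Ndufa9, Cox7a2 and Ndufa7 stay filled with the block, and Ndufv3 alone stays filled with the covariate.

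Probe sets of the same subunit gene did not always move together. The members had 164 probe sets, and 48 of them had more than 1. In 3bKI against wt the called genes had 17 other probe sets with a signal over 8, of which 12 had the same sign and 4 were called in the same direction. In 1KI against wt, 9 of 13 had the same sign and 5 the same call. Opposite calls within a gene occurred for Atp5c1, Ndufa12 and Ndufc2 in 1KI against 3aKO. In 3bKI they occurred for Ndufa12 against wt, and for Atp5j2, Ndufa3 and Ndufb11 against 3aKO. For Ndufb11 against 3aKO the chosen probe set fell by 0.21 (adjusted p = 0.00252), while the others gave 0.19, called higher, and -0.14, called lower.

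Genes that build and serve the complexes were called in shares on either side of those of all genes, which were 27.6% for 1KI and 29.2% for 3bKI, each against wt. By direction, 10.2% of all genes rose and 17.5% fell in 1KI, and 13.4% rose and 15.9% fell in 3bKI. The list shares ran from 16.7% (citric acid cycle) to 52.6% (electron carriers and coenzyme Q synthesis) in 1KI and from 15.4% (oxidative stress genes) to 51.3% (mitochondrial ribosome) in 3bKI, and the difference from all genes was not tested. Of 46 tested assembly factors, which put the complexes together without remaining in them, 4 rose and 13 fell in 1KI against wt and 7 rose and 13 fell in 3bKI against wt. Acad9, needed for complex I assembly, went from 9.37 in wt to 8.27 in 3bKI (-1.10 ± 0.08, adjusted p = 4.20e-11, and -0.97 with the block). Coa5, a complex IV assembly factor, went from 11.47 to 10.80 (-0.68 ± 0.05, adjusted p = 3.64e-10, and -0.60 with the block), and fell by 0.30 ± 0.04 in 1KI (-0.22 and no longer called with the block). With the block 0 assembly factors were called in 1KI against wt, and 2 rose and 4 fell in 3bKI against wt. Both differences were further from 0 than that of any subunit gene in 3bKI against wt.

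Among 16 regulators of mitochondrial transcription, 2 rose and 6 fell in 3bKI against wt. Esrrg, an estrogen-related receptor, fell by 1.27 ± 0.20 (adjusted p = 1.26e-05, and -1.02 with the block). Gabpa, the ETS factor of the CCGGAAG motif, fell by 0.43 ± 0.07 (adjusted p = 1.83e-05) and was at -0.40 with the block. In 1KI against wt 2 rose and 3 fell, with Nrf1 at 0.48 ± 0.08 (adjusted p = 2.97e-05, and 0.79 with the block) and Polrmt, the mitochondrial RNA polymerase, at 0.35 ± 0.06 (0.18 with the block, adjusted p = 0.374). Ppargc1a rose by 0.58 ± 0.21 in 3bKI (adjusted p = 0.0347) and differed by 0.22 in 1KI (adjusted p = 0.328). With the block, 1 regulator rose and 3 fell in 3bKI against wt, and 1 rose and 0 fell in 1KI against wt.

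Of 19 genes of electron carriers and coenzyme Q synthesis, 4 rose and 6 fell in 1KI against wt and 2 rose and 7 fell in 3bKI against wt. Coq10b, a coenzyme Q binding protein, fell by 1.40 ± 0.19 in 3bKI (adjusted p = 1.34e-06) and Coq9, of coenzyme Q synthesis, rose by 0.48 ± 0.06 (adjusted p = 1.96e-07), at -1.18 and 0.32 with the block. Hccs, which attaches heme to cytochrome c, fell by 0.91 ± 0.19 in 1KI (adjusted p = 4.32e-04), and with the block was at -1.07 and no longer called (adjusted p = 0.0671). With the block 0 genes of this list were called in 1KI, and 2 rose and 1 fell in 3bKI. Of 12 citric acid cycle genes 1 rose and 4 fell in 3bKI, with citrate synthase Cs at 0.50 ± 0.09 and malate dehydrogenase Mdh2 at -0.25 ± 0.04 (0.58 and -0.28 with the block), and 1 rose and 1 fell in 1KI. Of 15 carriers and porins 2 rose and 5 fell in each knock-in, with the porin Vdac1 at -0.45 ± 0.06 and the glutamate carrier Slc25a22 at 0.84 ± 0.14 in 3bKI. With the block both calls ended, at -0.22 (adjusted p = 0.0854) for Vdac1 and 0.68 (adjusted p = 0.0617) for Slc25a22, and of the carriers 0 were called in 1KI and 1 fell in 3bKI. Of 76 mitochondrial ribosome genes 4 rose and 19 fell in 1KI, with Mrps11 at -0.62 ± 0.08 (-0.55 with the block), and 25 rose and 14 fell in 3bKI, with Mrps9 at -0.60 ± 0.07 (-0.50 with the block). Of 19 protein import genes 2 rose and 3 fell in 1KI and 2 rose and 6 fell in 3bKI. Of 49 cytosolic ribosome genes 6 rose and 17 fell in 1KI and 4 rose and 16 fell in 3bKI, and of 13 oxidative stress genes 0 rose and 4 fell and 1 rose and 1 fell. With the block, 0 mitochondrial ribosome genes rose and 2 fell in 1KI and 4 rose and 3 fell in 3bKI. Cytosolic ribosome genes then had 2 rises and 0 falls in 1KI and 0 rises and 1 fall in 3bKI. Protein import genes had 0 calls in 1KI and 1 rise and 2 falls in 3bKI, and oxidative stress genes 0 calls in either. Citric acid cycle genes had 0 calls in 1KI and 1 rise and 1 fall in 3bKI with the block. In 3aKO against wt Ppargc1a was the only called gene of all these lists.

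The tissue label was checked against markers. The log2 of the mean hepatocyte marker signal lay between 14.31 and 14.41 on every array. Of 9 hepatocyte markers 1 rose in 1KI and 0 were called in 3bKI, each against wt. In 1KI against wt 0 of 11 Kupffer cell markers were called, 1 of 8 endothelial markers rose and 2 fell, and of 9 stellate, 5 bile duct, 8 lymphocyte and 5 red blood cell markers 1, 1, 2 and 1 fell. In 3bKI against wt 2 Kupffer cell, 1 endothelial, 1 stellate, 1 bile duct, 2 lymphocyte and 1 red blood cell markers rose, and 3 stellate, 1 red blood cell and 1 striated muscle markers fell. Of 7 fat markers 0 were called in either. Against 3aKO 4 Kupffer cell markers fell in 1KI (median of the 11 -0.26), with 2 endothelial markers higher and 1 lower, and in 3bKI 3 endothelial markers rose (median of the 8 0.23), with 1 Kupffer cell marker higher and 1 lower. Of stellate, bile duct, lymphocyte and red blood cell markers 0, 1, 1 and 0 rose and 1, 1, 2 and 1 fell in 1KI against 3aKO, and 1, 2, 2 and 1 rose and 2, 0, 0 and 1 fell in 3bKI against 3aKO. Of 9 hepatocyte markers 1 rose in 1KI and 1 fell in 3bKI, each against 3aKO. In 3bKI against 3aKO 1 of 7 fat markers fell, and of 13 striated muscle markers 1 rose and 1 fell. In 1KI against 3aKO 0 fat and 0 striated muscle markers were called. The part of these markers in the subunit differences against 3aKO was not tested. Red blood cell markers had a log2 of the mean signal of 7.17 to 9.49 in 3bKI and 6.33 to 7.74 in wt, beside the subunit differences of that comparison; their part in these was not tested.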

How the data were processed

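RNA from 37 liver samples was read on mouse arrays with 45101 probe sets. The deposited values are log2 signals, judged by their range of 2.13 to 15.06, and the authors had normalized them; the sources used here do not name the method. They fill 59 columns in 2 normalizations, with array medians from 5.83 to 6.00, and the number of arrays limits the precision. Probe sets with 1 symbol (34945) were reduced to 1 per gene (18193), the one with the highest mean. The 3 groups of a normalization entered 1 model of limma 3.58.1 (R 4.3.3; lmFit, then eBayes without trend) over all genes, with Benjamini-Hochberg adjustment per comparison and a threshold of 0.05. Errors of differences are standard errors of limma. Comparisons share their wt, 3aKO or knock-in arrays and are not independent.

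The hybridization control level was higher for arrays that reached the lowest knock-in array in the mean of 18 control probe sets, and 24 probe sets gave the poly-A level. Members, lists and the naming rule were chosen with earlier results of these data known. Named were core subunits, isoforms of other tissues, the called member with the highest and lowest difference per complex, the 5 highest and 5 lowest called, and members with opposite calls; others were named after their values were seen. Sequences were matched by symbol to RefSeq promoters. Other settings were fits of only the groups in question, a variance trend, brighter genes only, averages over a gene's probe sets, array weights of limma, equal array medians, a repeated quantile normalization, probe sets without the _x_at suffix, a 3′ minus 5′ covariate, the control level as a block with and without a sex index, that level alone, a replicate block, and each array left out. The fits were tested on simulated data.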

Additional observations from a re-analysis of the deposited data

Results flagged for a closer look

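Of 147 tests for a single array far from the others, made in groups of 4 to 10 arrays, 28 flagged one. The tests took genes and complex means in turn on the same arrays and are not independent. The chance rate of about 1 in 20 for a single test therefore cannot be set against the 28. Most lay on 1KI replicate 6, whose 3′ minus 5′ difference was 1.75. Low there were Atp5a1 (12.86), Atp5b (13.05), Atp5c1 (12.67), Cox5a (13.01), Ndufa9 (11.07), Ndufs1 (10.36), Ndufv1 (11.43), Sdha (10.97), Sdhc (11.10), Uqcrc1 (12.02), Uqcrc2 (11.58) and Uqcrfs1 (12.29). High there were Atp5d (13.69), Cox4i1 (13.16), Cox7a2 (13.60), Ndufa5 (11.51), Ndufb11 (13.28), Ndufb7 (13.16), Ndufs8 (12.97) and Ndufv3 (12.44). The 4 genes of complex II had a mean deviation of -1.02 from the wt mean on that array, where the other 1KI arrays lay between -0.09 and 0.05. Among these genes low and high ones occurred together in complexes I, IV and V.

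On 1KI replicate 4 the muscle isoforms Cox6a2 (9.50), Cox7a1 (7.05) and Cox8b (7.95) stood above the other 9 arrays, and complex IV had a mean deviation of 0.29 from the wt mean, against -0.07 to 0.04 on the others. Among the 3bKI arrays, replicate 2 was high in Atp5a1 (13.73, others 13.54 to 13.58) and low in Ndufc2 (11.60, others 11.97 to 12.06), and replicate 5 was low in the testis isoform Cox6b2 (5.45, others 6.15 to 6.41).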

How the results depend on the processing

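Members called ranged, with each array left out, from 15 to 21 in 1KI against wt and 12 to 18 against 3aKO, from 18 to 23 in 3bKI against wt and 19 to 25 against 3aKO, and from 0 to 0 in 3aKO against wt. In that order their median differences ranged from -0.015 to 0.001, -0.014 to 0.010, -0.048 to -0.005, -0.056 to -0.006 and 0.001 to 0.021. In 1KI against wt, 2 members passed with the control level as a block, 0 with a sex index added and 1 within the level. Against wt, the block and the fit within the level give the same differences and vary only in their errors. In 1KI against 3aKO, 0 passed with either block, 11 in a fit on these groups alone and 26 with the 3′ minus 5′ covariate. In 3aKO against wt, array weights gave 1. In 3bKI against wt, 6 passed with the level block, 5 with the sex index, 0 within the level and 1 with the covariate. Against 3aKO the level block gave 6, the sex index 6 and the covariate 0. Equal array medians moved the median to -0.034 in 1KI against 3aKO, and for 3bKI to -0.082 against wt and -0.109 against 3aKO, where the covariate moved it to -0.010. The causes were not tested. The other 304 values stayed within 1.5 times the count, or within 1 SD of the members' median over the wt arrays (0.0358 and 0.0383), which is wider than several of the medians themselves.

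Differences of called or named members turned in 17 cases. With the mean of a gene's probe sets, 1KI against 3aKO gave 0.298 for Atp5c1, -0.003 for Cox5a and 0.018 for Ndufc2, and Uqcr10 gave 0.241 in 3bKI against wt and 0.276 against 3aKO, where Atp5c1 gave 0.069 and 0.061. In 3bKI against wt Sdhc gave -0.010 with the covariate, -0.064 with the level block and within the level, and -0.072 with the sex index. Against 3aKO it gave -0.005, -0.051 and -0.059 with the covariate, the level block and the sex index, and with the covariate Ndufs1 gave 0.003, Ndufb6 -0.010 and Uqcrq -0.049. A call was lost in 486 and gained in 60 of the other cases, and 4306 stayed.

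Same-numbered arrays of different genotypes correlated between -0.34 and 0.38 in their deviations from the group means, and at most 5 of 10 correlated best with their own number. In 1KI against 3aKO, where these 5 lay, the median was 0.24 against 0 for other pairs and 7 of 10 were over 0.1, a hint from the data and not the design. Not every pair was over 0.1 in any comparison, so the numbers were not taken to pair samples. With the replicate number as a block, 14 members passed in 1KI against wt and 15 against 3aKO, 15 in 3bKI against wt and 19 against 3aKO, and 0 in 3aKO against wt. No 2 arrays held the same values. Dim members such as Cox7b2 and Ndufb4 are limited by their signal.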
